A study of Mus musculus with 39 samples.

Results

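The comparison described here set Leptin-water libraries 8 to 13 against Saline-water libraries 9 to 14 of mouse duodenum, 12 of the 39 libraries of the series. They were chosen by their titles and are the water libraries whose names in the labels begin with MT_, called the second cohort here. All 16358 genes of the deposited count table were members, and 16284 were tested. The mice were wild-type C57BL/6 males of 8 weeks with a cannula in a lateral ventricle of the brain, and all drank plain water for 48 h. The Leptin-water mice received 3 µg of leptin and the Saline-water mice saline through the cannula 3 days after it was placed. All were without food for 2 h from 1 h after lights on, and the duodenum was taken 2 h after the injection. Values are given side by side from a further pair of comparisons that share none of these libraries. One is the first cohort (names beginning with M_), with 7 Leptin-water and 8 Saline-water libraries treated in the same way. The other is the antibiotic arm of the second cohort, with 6 Leptin-antibiotic and 6 Saline-antibiotic libraries from mice whose water held ampicillin at 1 g/L plus neomycin at 0.5 g/L over the 48 h. The labels do not say that each library is a separate animal, so p-values measure the spread between these samples, which may be technical.

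Leptin is the hormone by which fat tissue reports energy stores to the brain. It acts on its receptor on hypothalamic neurons, which signals through JAK2 and STAT3, and the brain reaches the gut through autonomic nerves and through the pituitary and adrenal glands. The duodenum lies directly behind the stomach. Its proximal end borders the pyloric mucosa, where surface mucous cells make gastrokines, trefoil factor TFF1 and the mucin MUC5AC, and it holds Brunner glands, which, like the mucous cells of the pyloric glands, make the mucin MUC6 and TFF2. It is wrapped in smooth muscle with an enteric nerve plexus and lies against the pancreas, so a piece of duodenum can hold different amounts of these neighbours.

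Depth was close in both groups, at 39016590 to 54521236 counts per Leptin-water library and 35411734 to 48923372 per Saline-water library (exact two-sided permutation test of the means, p = 0.188). Ribosomal RNA left after depletion, read from Rn45s, took 2.87% to 10.1% of counts in Leptin-water and 4.50% to 11.2% in Saline-water libraries (p = 0.329, exact permutation test). Genes with at least 1 count numbered 16345 to 16352 against 16326 to 16349 (p = 0.0130, exact permutation test). No 2 libraries of a group held identical values. Markers of the absorptive cells of the labelled tissue were present, as all 18 genes of the enterocyte list were in the table and their mean was 9.70 to 10.19 log2 CPM in Leptin-water and 9.51 to 9.96 log2 CPM in Saline-water libraries.

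After leptin, 8 genes rose and 0 fell at an adjusted p of 0.05 in edgeR's quasi-likelihood test, 0.0491% and 0% of the genes tested. At an unadjusted p under 0.05, 543 genes were higher (3.33%) and 514 lower (3.16%). With DESeq2 the count of adjusted calls was 67, of which 55 were higher and 12 lower, and with limma voom it was 24, of which 22 were higher and 2 lower. Of the 8 adjusted p-values, 4 were 0.0499. The count fell to 0 without Leptin-water 8, 9, 10 or 13 or without Saline-water 12 or 14. It reached 19 without Saline-water 13. The count thus changed when single libraries were left out, and the cause of this was not tested.

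Chrna9, the alpha-9 subunit of nicotinic acetylcholine receptors (GRCm38 chromosome 5, 65934921 to 65977326, plus strand), had the lowest p. It was at 1.00, 0.721, 0.861, 1.35, 0.655 and 1.12 CPM in Leptin-water 8 to 13, against 0.290, 0.238, 0.112, 0.214, 0.319 and 0.113 CPM in Saline-water 9 to 14. Every Leptin-water library lay above every Saline-water library. The log2 fold change was 2.16 (SE 0.29, adjusted p = 0.0353). The gene is rare in this tissue, with 28 to 62 reads per Leptin-water library and 5 to 13 per Saline-water library. The log2 fold change was also positive in the first cohort, at 1.10 (unadjusted p = 0.0111, adjusted p = 0.204), and in the antibiotic arm, at 1.32 (unadjusted p = 0.0198, adjusted p = 0.206), neither of which passed the threshold in its edgeR fit.

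Sptssb (chromosome 3, 69819542 to 69859940, minus strand) encodes a small subunit of serine palmitoyltransferase, the enzyme that starts sphingolipid synthesis. It was at 34.2, 29.6, 38.9, 16.7, 14.1 and 26.1 CPM in Leptin-water 8 to 13, against 2.14, 6.23, 7.95, 6.24, 9.36 and 5.40 CPM in Saline-water 9 to 14. The groups did not overlap, Leptin-water 11 and 12 were the lowest of their group, and Saline-water 9 was the lowest of all. The log2 fold change was 2.10 (SE 0.30, adjusted p = 0.0362). Psapl1 (chromosome 5, 36204021 to 36206568, plus strand), a relative of the lysosomal saposin precursor, averaged 14.6 ± 4.33 CPM in Leptin-water and 2.92 ± 1.51 CPM in Saline-water libraries (SD, n = 6 each), a log2 fold change of 2.32 with SE 0.36 and adjusted p = 0.0452. Sox21 (chromosome 14, 118233232 to 118237030, minus strand), a transcription factor of the SOX family, averaged 3.27 ± 0.91 CPM in Leptin-water and 0.864 ± 0.38 CPM in Saline-water libraries, a log2 fold change of 1.92 with SE 0.29 and adjusted p = 0.0362. As in Sptssb, the lowest libraries of both genes were Leptin-water 11 and 12 in the one group and Saline-water 9 in the other.

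The remaining rises, each at an adjusted p of 0.0499, were in S100a6, Gsdma2, Teddm3 and Lypd6b. S100a6 (chromosome 3, 90612882 to 90624181, plus strand), a calcium-binding protein of the S100 family, was at 43.4, 44.6, 38.8, 25.1, 29.0 and 56.3 CPM in Leptin-water 8 to 13, against 12.4, 19.8, 20.9, 19.7, 17.8 and 22.2 CPM in Saline-water 9 to 14, a log2 fold change of 1.07 (SE 0.18). Gsdma2 (chromosome 11, 98646759 to 98657964, plus strand), of the gasdermin family of pore-forming proteins, averaged 5.14 ± 1.94 CPM in Leptin-water and 1.09 ± 0.69 CPM in Saline-water libraries, a log2 fold change of 2.23. Teddm3 (chromosome 16, 21152655 to 21154000, minus strand) had a log2 fold change of 1.76 and Lypd6b (chromosome 2, 49787688 to 49948849, plus strand) one of 1.75. In all 8 genes every Leptin-water library lay above every Saline-water library, which was so for 51 genes of the whole table (0.313%), while 30 genes (0.184%) had every Leptin-water library below. Across the 8 genes, the lowest Leptin-water library was 11 or 12 in all 8, and the lowest Saline-water library was 9 in 7.

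**Figure D1:**
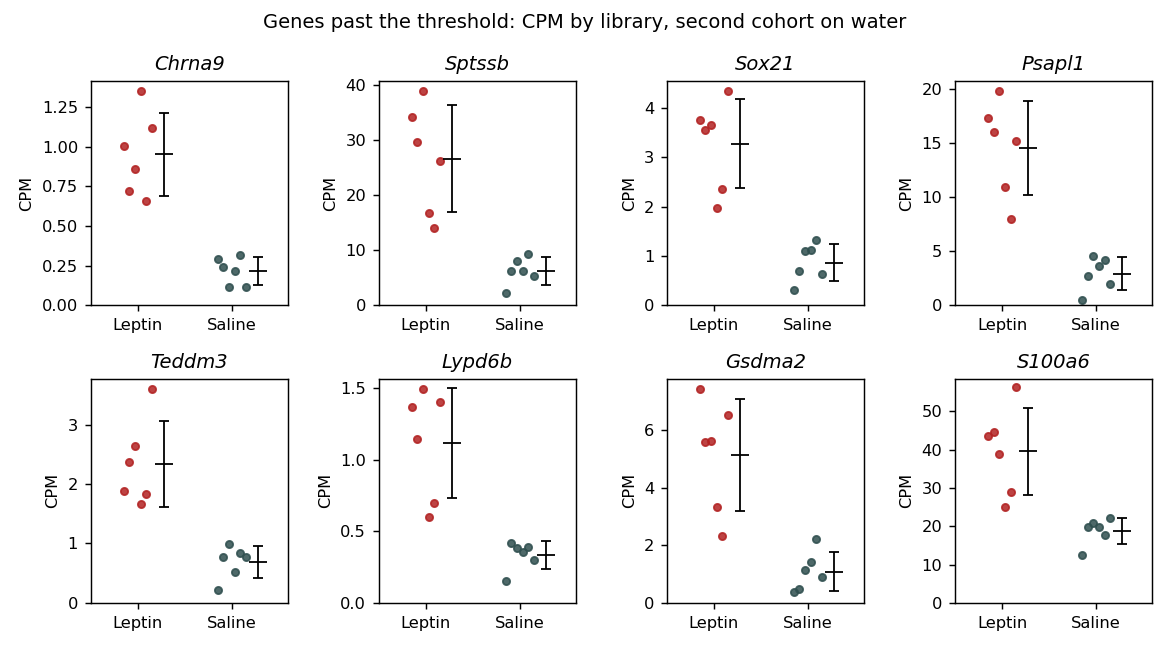
Normalised expression (CPM, linear axes from 0) of the 8 genes past an adjusted p of 0.05 in the 6 Leptin-water and 6 Saline-water libraries of the second cohort. Points are libraries in title order, and bars give the mean and SD. No panel has overlapping groups, and in Sptssb the Leptin-water libraries sit between 14.1 and 38.9 CPM and the Saline-water libraries between 2.14 and 9.36 CPM.

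The next genes by the naming rule had adjusted p-values of 0.0625 to 0.0944 and did not pass. Several are known from gastric epithelium, namely Tff1, Gkn2, Cldn18, the claudin of stomach tight junctions, and Vsig1, an adhesion protein of gastric epithelial cells. Cldn18 averaged 38.1 ± 14.1 CPM in Leptin-water and 7.56 ± 5.36 CPM in Saline-water libraries (log2 fold change 2.34, adjusted p = 0.0944), and Vsig1 13.1 ± 5.32 CPM against 4.14 ± 1.62 CPM (1.67, adjusted p = 0.0944). The others were the kinase gene Nek10, Pvr (the poliovirus receptor CD155), Tst (the sulfur transferase rhodanese), Slc45a3, Syt16 and Fer1l4. Pvr differed by 0.49 and Tst by 0.51 on the log2 scale, with every Leptin-water library above every Saline-water library in both.

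Nek10 had positive log2 fold changes in all 3 comparisons. It was at 31.8, 20.3, 34.2, 31.4, 24.6 and 34.5 CPM in Leptin-water 8 to 13, against 3.95, 15.4, 9.72, 17.6, 6.22 and 7.16 CPM in Saline-water 9 to 14, with no overlap. The log2 fold change was 1.56 (SE 0.29, adjusted p = 0.0944) in the second cohort on water, 1.02 in the first cohort and 0.91 in the antibiotic arm. Unlike in Sptssb, Leptin-water 11 was not among the low libraries of its group.

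Among the lower genes named, the smallest p belonged to Dact2, an inhibitor of dishevelled in Wnt signalling, at 9.77, 10.6, 10.9, 9.54, 11.0 and 9.33 CPM in Leptin-water 8 to 13, against 16.3, 13.9, 13.7, 14.7, 20.1 and 13.0 CPM in Saline-water 9 to 14. Its log2 fold change was −0.58 with SE 0.11 and adjusted p = 0.0894, with no overlap between the groups. Nt5e, the ecto-enzyme CD73 that makes adenosine from AMP, averaged 37.8 ± 4.81 CPM in Leptin-water and 60.2 ± 11.8 CPM in Saline-water libraries (log2 fold change −0.67, adjusted p = 0.0944). The next 8 had adjusted p-values of 0.175 to 0.272 and log2 fold changes of −0.28 to −0.71. They were Jund, Bnip5, Fkbp14, H1f2, Pirt, R3hdml, Ctxn1 and Nlrx1.

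The stomach and Brunner gland list was split between surface mucous genes and gland genes. Of its 14 genes 13 were tested and 11 had a positive log2 fold change (84.6%, against 47.2% of all genes tested), with a median of 0.61 (all genes −0.0086). Of the 13, 0 passed the adjusted threshold and 7 were higher at an unadjusted p under 0.05 (53.8%, against 3.33% of all genes). These were Tff1, Gkn2, Gkn1, Psca, Muc5ac, Gast and Ctse. The list was written with earlier results of these data known, so it is not independent evidence of a direction.

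Tff1, the trefoil factor of surface mucous cells (chromosome 17, 31161395 to 31165277, minus strand), was at 106, 86.3, 103.8, 45.7, 45.8 and 103.4 CPM in Leptin-water 8 to 13, against 1.34, 13.9, 21.3, 15.4, 22.9 and 9.55 CPM in Saline-water 9 to 14. Gkn2, a gastrokine secreted by the same cells (chromosome 6, 87373357 to 87379497, plus strand), was at 520.6, 431.6, 480.5, 231.9, 228 and 496 CPM in Leptin-water 8 to 13, against 3.55, 67.5, 91.6, 52.8, 118.5 and 37.7 CPM in Saline-water 9 to 14. In both genes the groups did not overlap, Leptin-water 11 and 12 were the lowest of their group, and Saline-water 9 was far below the other Saline-water libraries. The log2 fold changes were 2.54 for Tff1 (SE 0.44, adjusted p = 0.0625) and 2.69 for Gkn2 (SE 0.52, adjusted p = 0.0944). Without Saline-water 9 they were 2.30 and 2.44, and both then passed, with adjusted p-values of 0.00579 and 0.00601 (0.00104 to 0.622 for Tff1 and 0.00316 to 0.652 for Gkn2 over all alternatives). The alternatives include fits with the mean of this list as a covariate, and both genes are part of that mean.

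Gkn1, the other main gastrokine, averaged 313 ± 111 CPM in Leptin-water and 56.1 ± 42.7 CPM in Saline-water libraries, a log2 fold change of 2.48 at adjusted p = 0.162. Psca, a small GPI-anchored protein found on gastric epithelium, had a log2 fold change of 2.50 at adjusted p = 0.175, and Muc5ac, the surface mucin, one of 2.31 (adjusted p = 0.614) with overlapping groups. Gast, the gastrin of antral G cells, was close to its detection limit in Saline-water libraries, with counts of 22 to 103 in Leptin-water and 0 to 40 in Saline-water libraries (log2 fold change 1.99, adjusted p = 0.659, and 3.15 without Saline-water 13, the highest of its group).

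The gland genes overlapped between the groups. Muc6, the mucin of Brunner and pyloric glands, ranged from 2727 to 14420 CPM in Leptin-water and from 5669 to 15990 CPM in Saline-water libraries (log2 fold change −0.13, adjusted p = 0.953). Tff2 ranged from 1554 to 3363 CPM in Leptin-water and from 1079 to 3705 CPM in Saline-water libraries (0.07, adjusted p = 0.972). Pgc, the pepsinogen C gene, and Gkn3 differed by 0.08 and 0.11 on the log2 scale. Surface mucous genes and gland genes of the same list therefore had log2 fold changes of different size, and the difference between these subsets was not tested.

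**Figure D2:**
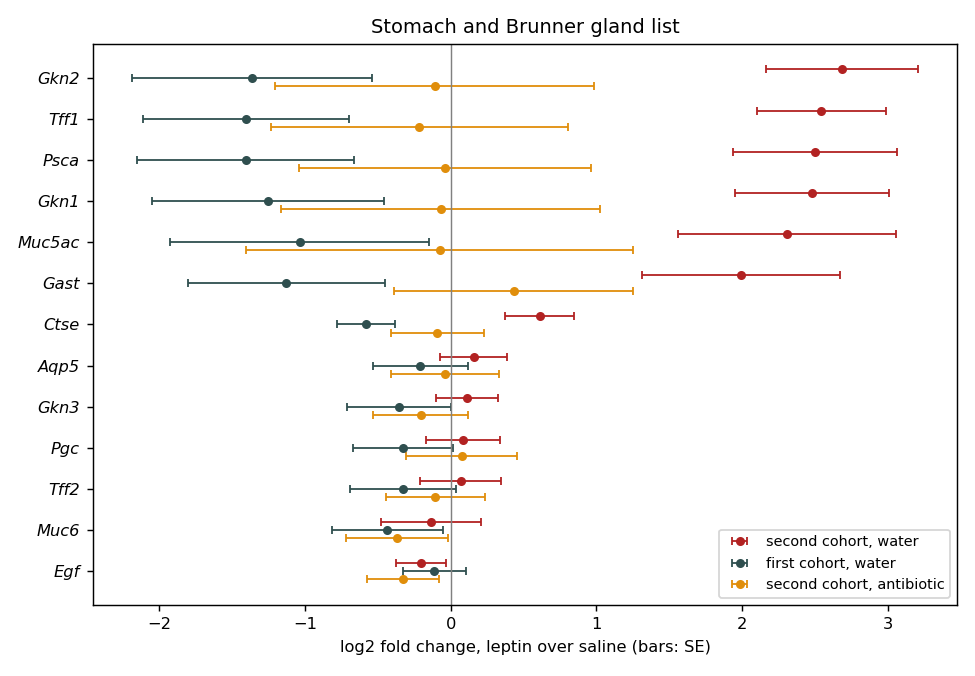
Log2 fold change, leptin over saline, of the 13 tested members of the stomach and Brunner gland list, with bars giving the SE, in the second cohort on water (red), the first cohort on water (dark grey) and the antibiotic arm of the second cohort (orange). The surface mucous genes Gkn2, Tff1, Psca, Gkn1 and Muc5ac lie between 2.31 and 2.69 in the second cohort on water and between −1.41 and −1.04 in the first cohort, whereas Muc6, Tff2 and Pgc lie between −0.13 and 0.08 in the second cohort.

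The same list ran the other way in the first cohort. There 0 of 13 members had a positive log2 fold change and the median was −0.58, and in the antibiotic arm 2 of 13 were positive with a median of −0.09. Tff1 had a log2 fold change of −1.41 in the first cohort and −0.21 in the antibiotic arm. The difference between cohorts for Tff1 was 3.97 on the log2 scale (SE 0.96) and did not pass (adjusted p = 0.118). Levels varied widely in those libraries, from 0.409 to 70.2 CPM in first-cohort Leptin-water and from 1.31 to 140 CPM in first-cohort Saline-water libraries, and from 0.252 to 277.5 CPM in Leptin-antibiotic and 4.02 to 226.4 CPM in Saline-antibiotic libraries.

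The mean of the whole list was 6.24 to 7.26 log2 CPM in Leptin-water and 3.76 to 6.11 log2 CPM in Saline-water libraries, with no overlap. The summed CPM of the list did overlap, at 6669 to 21100 CPM in Leptin-water and 8360 to 21830 CPM in Saline-water libraries. The medians of the sum were 13820 and 13120 CPM. The lowest list means within the groups were in Leptin-water 11 and 12 and in Saline-water 9 and 14. Leptin-water 11 and 12 were also the lowest of their group in 7 of the 8 genes that rose, and Saline-water 9 was the lowest of its group in 7. Saline-water 14 was next to lowest of its group for Sptssb and the highest for S100a6. With the list mean as a covariate, an alternative chosen after seeing the data, 0 genes passed (1747 at an unadjusted p under 0.05). The log2 fold changes were then 1.03 for Sptssb, 0.81 for Sox21, 0.98 for Psapl1, 0.99 for Gsdma2 and 0.53 for S100a6, and 2.32 for Chrna9, all with adjusted p-values of 0.392 to 0.422. Because the groups did not overlap in the list mean, the injection and the level of these gastric genes cannot be told apart in this comparison. In bulk tissue, more cells of a type and more RNA per cell cannot be told apart either.

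The wall of the gut was on the lower side after leptin. Of 16 smooth muscle genes 0 had a positive log2 fold change (median −0.31), 0 passed the adjusted threshold and 7 were lower at an unadjusted p under 0.05 (43.8%, against 3.16% of all genes). Actg2, the enteric smooth muscle actin, was at 82.7, 70.2, 45.7, 85.7, 65.9 and 94.4 CPM in Leptin-water 8 to 13, against 94.7, 109.9, 85.3, 120.4, 103.4 and 104.5 CPM in Saline-water 9 to 14. The groups overlapped, with Leptin-water 10 lowest, and the log2 fold change was −0.47 (SE 0.14, adjusted p = 0.533). The muscle genes Cnn1 (calponin) and Acta2 had log2 fold changes of −0.34 and −0.36. In the first cohort 16 of the 16 were positive, with a median of 0.36, and in the antibiotic arm 0 were positive, with a median of −0.16.

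Enteric neuron and glia genes were on the lower side as well. Of 19 members 2 were positive, the median was −0.30, and 3 (Stmn2, Snap25 and Syt1) were lower at an unadjusted p under 0.05 (15.8%, against 3.16% of all genes). Stmn2, a tubulin-binding protein of growing neurons, was at 2.56, 2.27, 1.04, 2.62, 1.78 and 2.25 CPM in Leptin-water 8 to 13, against 2.99, 3.82, 3.08, 3.67, 2.90 and 3.01 CPM in Saline-water 9 to 14, with no overlap (log2 fold change −0.63, SE 0.19, adjusted p = 0.533). In the first cohort 17 of the 19 were positive, with a median of 0.54, and in the antibiotic arm 4 were positive, with a median of −0.18. Collagen and fibroblast genes were positive in 2 of 15 with a median of −0.16, and 4 were lower at an unadjusted p under 0.05 (26.7%, against 3.16% of all genes). Col1a1 averaged 112 ± 23.1 CPM in Leptin-water and 145 ± 11.1 CPM in Saline-water libraries (log2 fold change −0.37, adjusted p = 0.614). Unlike the muscle and nerve lists, this list was also mostly negative in the first cohort, with 2 of 15 positive and a median of −0.10. In the antibiotic arm 4 of 15 were positive, with a median of −0.05.

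Pancreatic RNA was present in some libraries of both groups. The exocrine pancreas list averaged 4.92 log2 CPM in Leptin-water 10, 2.23 in Saline-water 9 and 3.12 in Saline-water 14. It was at 1.54 log2 CPM in Saline-water 11 and at −1.36 to 0.46 in the remaining libraries. Cpa1 had 276 counts in Saline-water 11 and 254 in Saline-water 9. All 17 tested members of the 24 listed had a positive log2 fold change (100%, against 47.2% of all genes, median 1.05). Pnlip, for one, had 4306 counts in Leptin-water 10, 2 to 41 in the other Leptin-water libraries and 0 to 1083 in Saline-water libraries. The group means of the list mean were alike, at 0.52 and 0.51 log2 CPM in Leptin-water and Saline-water libraries. The medians were −0.26 and 0.17 log2 CPM. None of the 17 reached an unadjusted p of 0.05, and leaving out the 3 libraries gave 3 genes past the adjusted threshold in the whole table.

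**Figure D3:**
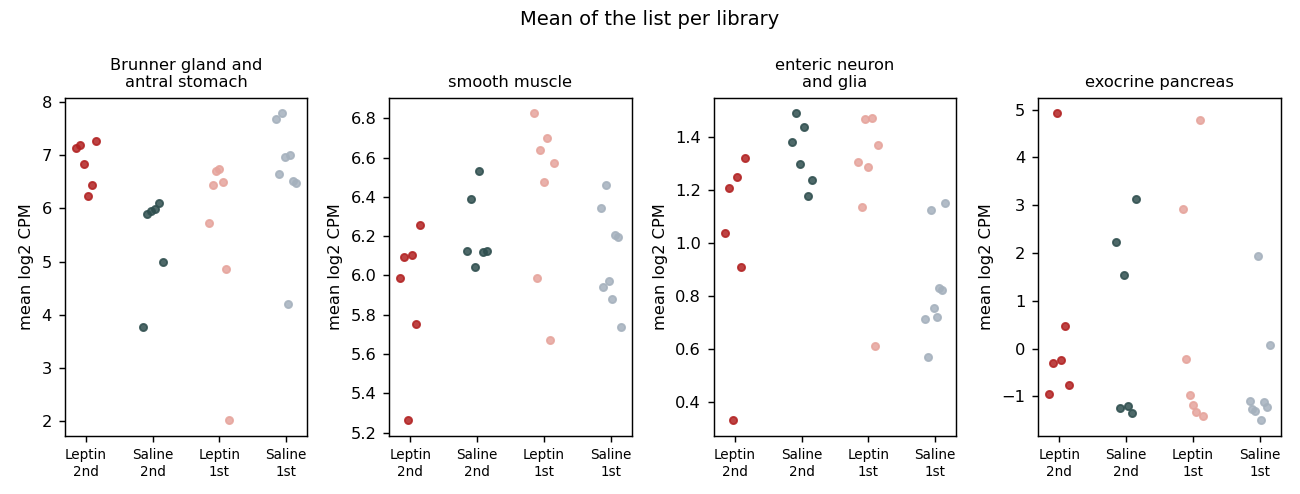
Mean log2 CPM of 4 marker lists in each library, for Leptin-water and Saline-water libraries of the second cohort and of the first cohort (points, in title order). The stomach and Brunner gland list lies at 6.24 to 7.26 in Leptin-water and at 3.76 to 6.11 in Saline-water libraries of the second cohort, and Leptin-water 10 stands out at 4.92 in the pancreas list and is the lowest of the second cohort in the muscle and nerve lists.

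Genes of protein folding in the endoplasmic reticulum leaned upward. When unfolded protein accumulates there, the sensors IRE1, PERK and ATF6 raise the transcription of chaperones, many of which carry a stress response element (ERSE) in the promoter that binds NF-Y and ATF6. The list of the unfolded protein and integrated stress responses held 26 genes, of which 0 passed the adjusted threshold and 22 were positive (84.6%). The median was 0.18, and 9 were higher at an unadjusted p under 0.05 (34.6%, against 3.33% of all genes). Hspa5, the chaperone BiP (chromosome 2, 34771970 to 34777547, plus strand), was at 654.4, 654.4, 776.3, 534.6, 533.8 and 591.4 CPM in Leptin-water 8 to 13, against 523.1, 491.9, 407.6, 437.8, 392 and 523.6 CPM in Saline-water 9 to 14. The groups did not overlap, although the lowest Leptin-water library, at 533.8 CPM, was close to the highest Saline-water library, at 523.6 CPM. The log2 fold change was 0.43 (SE 0.11, adjusted p = 0.288 in edgeR), and with DESeq2 the adjusted p was 0.031 (0.031 to 0.58 over all alternatives).

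Creld2, a secreted folding factor of the same response, averaged 28.9 ± 5.17 CPM in Leptin-water and 22 ± 4.94 CPM in Saline-water libraries (log2 fold change 0.39, adjusted p = 0.738). Pdia4, a disulfide isomerase, averaged 123.5 ± 12.6 CPM against 102.8 ± 10.6 CPM (0.26, adjusted p = 0.602). Herpud1, which serves the degradation of misfolded proteins, averaged 179.5 ± 28.4 CPM in Leptin-water and 130 ± 44.7 CPM in Saline-water libraries (0.47, adjusted p = 0.699). Saline-water 10 stood apart from its group in Herpud1, at 220.3 CPM against 100.7 to 118.2 CPM in the other Saline-water libraries, and without it the log2 fold change was 0.67 with an adjusted p of 0.0315 (0.0315 to 0.936 over all alternatives). In the first cohort 18 of the 26 members were positive with a median of 0.04, and in the antibiotic arm 22 were positive with a median of 0.07.

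The promoters of this list were read because most of its members had the same sign. RefSeq promoter windows of 300 bases around the gene start (GRCm38.p6) were matched for 23 of the 26 members. The ERSE, searched on both strands as CCAAT and CCACG with any 9 bases between them, was in 7 of the 23 and in 39 of the 32851 promoters of the table (0.119%). Members were counted by gene and the table by promoter window. Chaperones of this response are known to carry the element, so its share in the list is no result of these libraries. The sites are shown 5′ to 3′ in the direction of the motif, with the defining letters CCAAT and CCACG in capitals. The first of the 2 sites is shown for Hsp90b1, and in Calr and Creld2 the site lies on the strand opposite to the gene.
Calr: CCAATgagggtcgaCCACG
Canx: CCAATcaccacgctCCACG
Creld2: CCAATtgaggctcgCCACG
Dnajc3: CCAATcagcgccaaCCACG
Hsp90b1: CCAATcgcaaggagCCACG
Hspa5: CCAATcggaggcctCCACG
Pdia6: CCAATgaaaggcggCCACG
The 7 genes with a site had log2 fold changes of −0.0056 to 0.43 with a median of 0.18, and 3 of them were higher at an unadjusted p under 0.05. The 16 without a site had a median of 0.16, and 4 of them were higher at that p. The difference between these subsets was not tested. The promoters of Hspa5 and Creld2, the pair with the highest log2 fold changes among the 7, are shown whole, with the ERSE letters in capitals. In Creld2 the capitals read CGTGG and ATTGG, the reverse complement of the motif.
Hspa5, chr2:34771840-34772139, plus strand: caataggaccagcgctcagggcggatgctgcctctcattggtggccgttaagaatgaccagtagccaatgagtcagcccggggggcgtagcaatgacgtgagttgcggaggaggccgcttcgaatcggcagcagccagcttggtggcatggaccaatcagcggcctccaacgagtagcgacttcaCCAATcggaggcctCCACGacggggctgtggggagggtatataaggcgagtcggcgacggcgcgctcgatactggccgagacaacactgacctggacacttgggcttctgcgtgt
Creld2, chr15:88819396-88819695, plus strand: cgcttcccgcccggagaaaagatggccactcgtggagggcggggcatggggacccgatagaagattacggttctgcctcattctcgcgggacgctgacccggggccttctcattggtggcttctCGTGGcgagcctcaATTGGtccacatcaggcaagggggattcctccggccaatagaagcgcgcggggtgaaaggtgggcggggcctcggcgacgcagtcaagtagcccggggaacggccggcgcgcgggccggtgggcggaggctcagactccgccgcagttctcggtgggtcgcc
A match is a run of letters and no measurement of binding. The other elements searched in these windows were the cAMP element TGACGTCA, the E-box CACGTG, the glucocorticoid element (AGAACA and TGTTCT with any 3 bases between) and the D-box TTATGTAA. In the members of this list they were found in 0, 2, 0 and 0 of 23, and in all promoters in 1.79%, 7.15%, 0.00913% and 0.938%.

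Genes that answer to glucocorticoids, the adrenal hormones of stress and feeding state, also leaned upward. Of 20 members 0 passed the adjusted threshold and 19 were positive (95%, against 47.2% of all genes), with a median of 0.20. At an unadjusted p under 0.05, 5 were higher (25%, against 3.33% of all genes). The 5 were Per1, Tsc22d3, Bcl6, Cebpd and Glul. Tsc22d3, the glucocorticoid-induced leucine zipper GILZ, was at 78.8, 66.4, 79.1, 93.9, 74.9 and 81 CPM in Leptin-water 8 to 13, against 47.4, 110.4, 55.7, 45.2, 43.4 and 49.5 CPM in Saline-water 9 to 14. Saline-water 10 lay above every other library and the other 5 Saline-water libraries lay below every Leptin-water library. The log2 fold change was 0.43 (SE 0.19, adjusted p = 0.757), and without Saline-water 10 it was 0.70 (SE 0.09, adjusted p = 0.0123, and 0.0123 to 0.97 over all alternatives).

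Saline-water 10 was also the highest Saline-water library for Bcl6, a transcriptional repressor, at 46.5 CPM, and for Per1, a clock gene induced by glucocorticoids, at 86.3 CPM. Without it the log2 fold changes were 0.72 for Bcl6 (adjusted p = 0.0914) and 0.80 for Per1 (adjusted p = 0.129), against 0.48 and 0.59 with it. Fkbp5, a chaperone that limits the receptor, overlapped widely, at 86.3 to 187.6 CPM in Leptin-water and 28.6 to 153.3 CPM in Saline-water libraries (log2 fold change 0.41, adjusted p = 0.839). Without Saline-water 13 the log2 fold change of Fkbp5 was 0.22, and without Leptin-water 11 it was 0.26. In the antibiotic arm 18 of the 20 members were positive with a median of 0.52, and in the first cohort 14 with a median of 0.11.

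The clock list, which shares Per1 with the glucocorticoid list, had 13 of 21 positive members and a median of 0.15, with 3 higher (Per1, Nr1d2 and Hlf) and 2 lower (Nfil3 and Npas2) at an unadjusted p under 0.05. These were 14.3% and 9.52% of the list, against 3.33% and 3.16% of all genes. Nfil3, a repressor of D-box genes, averaged 4.08 ± 1.17 CPM in Leptin-water and 6.41 ± 1.97 CPM in Saline-water libraries (log2 fold change −0.65, adjusted p = 0.703). Hlf, an activator of the same elements, averaged 19.1 ± 9.21 CPM against 12.2 ± 3.20 CPM (0.65, adjusted p = 0.755). Leptin-water 12 was its highest library, and without it the log2 fold change was 0.37. These 5 genes had the same sign in the first cohort, at 0.49 for Per1, 0.22 for Nr1d2, 0.28 for Hlf, −0.35 for Nfil3 and −0.23 for Npas2, and none of them passed in the second cohort.

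**Figure D4:**
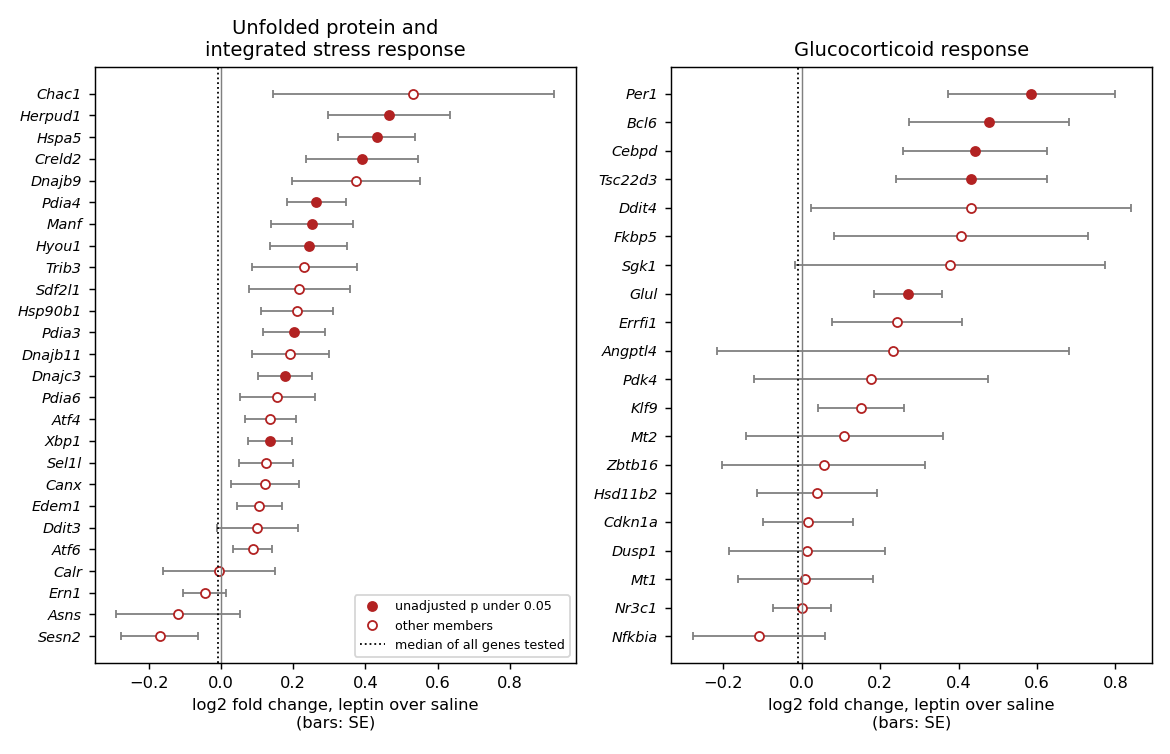
Log2 fold change, leptin over saline in the second cohort on water, of every member of the list of unfolded protein and integrated stress responses (left, 26 genes) and of the glucocorticoid response list (right, 20 genes), with bars giving the SE. Filled points have an unadjusted p under 0.05 (9 on the left and 5 on the right), and the dotted line is the median of all genes tested.

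No gene of leptin's own pathway passed the threshold in the duodenum. Lepr, the leptin receptor, averaged 11.8 ± 2.41 CPM in Leptin-water and 11 ± 2.50 CPM in Saline-water libraries (adjusted p = 0.930). Socs3, the feedback inhibitor that STAT3 induces, was at 24.3, 27.6, 17.2, 23.8, 21.8 and 32.2 CPM in Leptin-water 8 to 13, against 46.5, 18.7, 20, 33.1, 43 and 37 CPM in Saline-water 9 to 14. The groups overlapped and the log2 fold change was −0.43 (SE 0.21, adjusted p = 0.763). Of the 17 genes of the leptin receptor and JAK-STAT list 6 were positive (35.3%, against 47.2% of all genes, median −0.06). Pim1, a kinase gene induced by STATs, was the only member with an unadjusted p under 0.05 (log2 fold change −0.34, adjusted p = 0.703). It made up 5.88% of the list, against 3.16% of all genes that were lower at that p.

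Immediate early genes, which are induced within minutes of a stimulus, were mostly on the lower side. Of 22 members 7 were positive (31.8%, against 47.2% of all genes), with a median of −0.12. Jund, a member of the AP-1 transcription factor, was at 134.1, 149.4, 148.5, 148.7, 152.7 and 165.9 CPM in Leptin-water 8 to 13, against 197.3, 172.1, 172.8, 186.1, 182.2 and 180.9 CPM in Saline-water 9 to 14. Its groups did not overlap, and the log2 fold change was −0.28 (SE 0.06, adjusted p = 0.175). Ccn1, Nr4a1 and Jun had log2 fold changes of −0.59, −0.79 and −0.28, and Fos was on the higher side at 0.38, each with an unadjusted p under 0.05. The 4 lower genes were 18.2% of the list (3.16% of all genes), and the 1 higher gene was 4.5% of it (3.33% of all genes). Nr4a1 was at 13.7 CPM in Saline-water 14 and at most 5.46 CPM in the other 11 libraries of this comparison, and without Saline-water 14 its log2 fold change was −0.39 (adjusted p = 0.606). It was negative also in the first cohort (−1.51) and in the antibiotic arm (−1.64), and Ccn1 was at −0.85 and −0.70 in the same comparisons.

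Among inflammatory genes Tnf, the cytokine tumour necrosis factor, was at 0.732, 0.636, 0.253, 0.510, 0.445 and 0.486 CPM in Leptin-water 8 to 13, against 1.16, 1.31, 0.763, 1.33, 1.97 and 0.865 CPM in Saline-water 9 to 14. All Leptin-water libraries lay below all Saline-water libraries, and the log2 fold change was −1.25 (SE 0.27, adjusted p = 0.171). Tnf was rare, with 10 to 38 reads per Leptin-water library and 34 to 80 per Saline-water library. Il1b averaged 0.841 ± 0.17 CPM in Leptin-water and 1.36 ± 0.42 CPM in Saline-water libraries (log2 fold change −0.70, adjusted p = 0.614), with −0.65 in the first cohort and −0.70 in the antibiotic arm. Il33, an alarm cytokine of barrier tissue, was on the higher side, at 0.68 (adjusted p = 0.614). These genes are from the antimicrobial and innate alarm list, in which 6 of 15 tested members were positive (40%, against 47.2% of all genes). At an unadjusted p under 0.05, 1 member was higher (6.67%, against 3.33% of all genes) and 4 were lower (26.7%, against 3.16%). The antimicrobial lectins Reg3b and Reg3g turned on 1 library. Reg3b was at 7099 CPM in Saline-water 9 and at 24.8 to 267.8 CPM in the other 11 libraries, and its log2 fold change of −3.25 became 0.22 without that library.

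The 8 MHC class II genes, which present antigen to helper T cells, were all on the lower side (median −0.46), and 1 of them, H2-DMb1, had an unadjusted p under 0.05 (12.5%, against 3.16% of all genes, log2 fold change −0.77, adjusted p = 0.757). Saline-water 12 and 13 were the high libraries. Cd74, the invariant chain, was at 936.1 and 936.9 CPM there and at 267.1 to 467.8 CPM in the other 10 libraries. Its log2 fold change was −0.59, and −0.33 with either one of them left out, and that of H2-DMb1 was −0.44 without Saline-water 12. In the first cohort 5 of the 8 were positive, with a median of 0.06, and in the antibiotic arm 1 was positive, with a median of −0.13.

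Most genes of absorptive functions had positive log2 fold changes of small size. Enterocyte genes were positive in 15 of 18 with a median of 0.11, genes of sugar digestion and transport in 14 of 17 with 0.15, PPAR-alpha and fatty acid oxidation genes in 25 of 29 with 0.11, and xenobiotic metabolism genes in 33 of 36 with 0.20, against 47.2% positive and a median of −0.0086 over all genes. Genes of amino acid and peptide uptake were positive in 17 of 23 with a median of 0.07, and those of lipid absorption and chylomicrons in 17 of 26 with 0.04. Slc5a1, the sodium-glucose cotransporter SGLT1, averaged 2851 ± 506.2 CPM in Leptin-water and 2249 ± 394 CPM in Saline-water libraries (log2 fold change 0.34, adjusted p = 0.738). Of the xenobiotic genes 5 were higher at an unadjusted p under 0.05 (13.9%, against 3.33% of all genes), namely Nqo1, Gsta4, Ahr, Cyp4b1 and Abcc2, with log2 fold changes of 0.17 to 0.55 and an adjusted p of 0.735 or more. Members of the Gsta family are alike in sequence and can share reads, which was not tested here, so the value of Gsta4 is uncertain. Without Saline-water 9 the log2 fold change of Abcc2 was 0.23, against 0.35 with it. That library had the lowest Saline-water mean of the enterocyte, sugar, fatty acid oxidation and xenobiotic lists. For xenobiotic genes it was at 6.85 log2 CPM, against 7.27 to 7.97 in the other Saline-water libraries. For fatty acid oxidation genes it was at 5.82 log2 CPM, against 6.27 to 6.60. For enterocyte, sugar, fatty acid oxidation and xenobiotic genes, in this order, the medians were 0.34, 0.41, 0.20 and 0.27 in the antibiotic arm, and in the first cohort 0.02, 0.02, −0.08 and −0.0097.

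Heat shock genes were positive in 15 of 18 (83.3%, against 47.2% of all genes) with a median of 0.08. At an unadjusted p under 0.05, 3 (Dnaja1, Hsph1 and Chordc1) were higher (16.7%, against 3.33% of all genes). Without Leptin-water 10 the log2 fold changes were 0.34 for Hsph1 and 0.13 for Chordc1, against 0.54 and 0.22 with it. Enteroendocrine cell genes, which include hormones and other markers of these cells, were positive in 8 of 19 with a median of −0.03. Cck, the satiety hormone cholecystokinin, averaged 25.9 ± 4.99 CPM in Leptin-water and 27.8 ± 4.94 CPM in Saline-water libraries (adjusted p = 0.895), and Apoa4, the chylomicron apolipoprotein, 3543 ± 811.3 CPM against 3996 ± 858 CPM (adjusted p = 0.862).

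**Figure D5:**
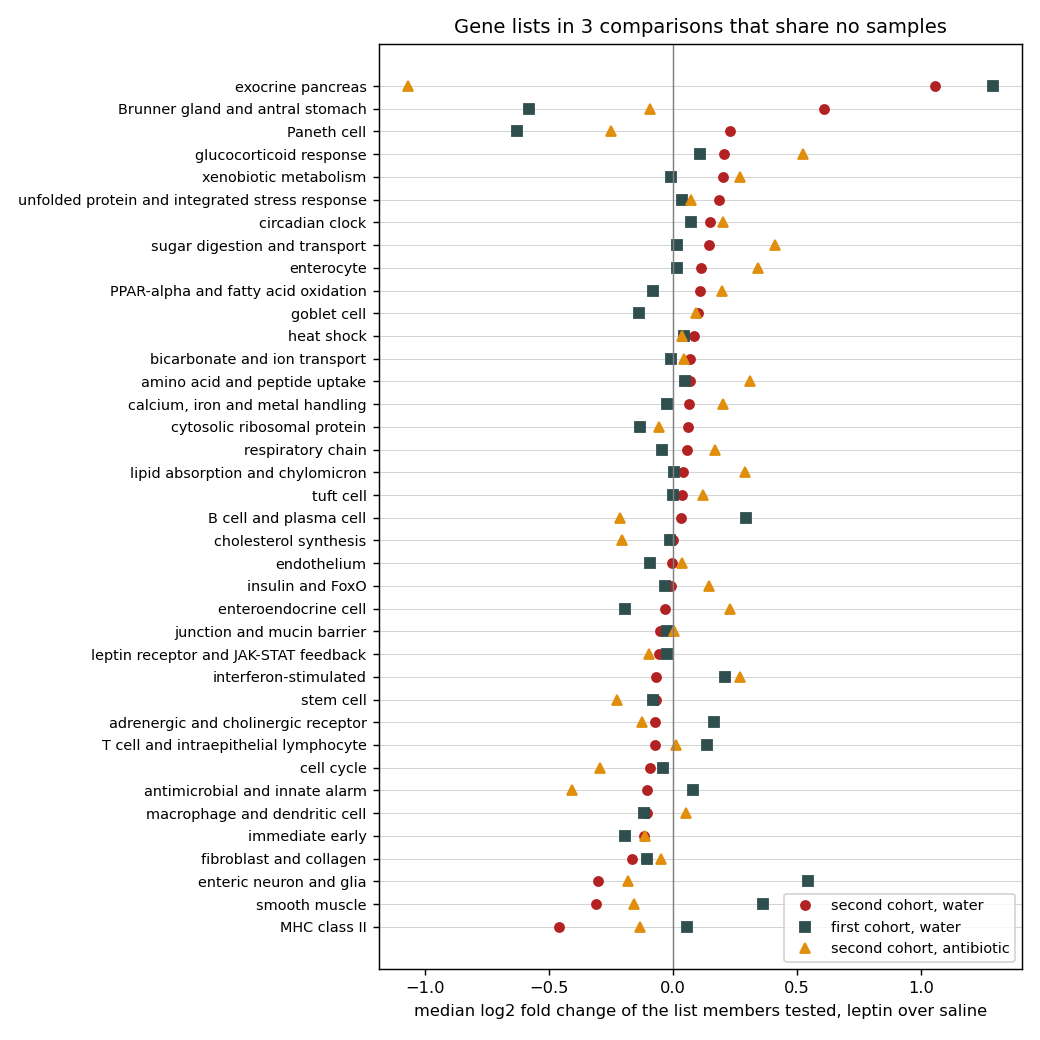
Median log2 fold change, leptin over saline, of the tested members of each gene list with over 3 of them, in the second cohort on water (red circles), the first cohort on water (dark grey squares) and the antibiotic arm of the second cohort (orange triangles). The stomach list lies at 0.61, −0.58 and −0.09 and the smooth muscle list at −0.31, 0.36 and −0.16 in these comparisons, whereas the glucocorticoid list is positive in all 3, at 0.20, 0.11 and 0.52.

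Whether leptin's effect differed between the cohorts was tested as an interaction in the 27 water libraries. It differed in 7 genes, being higher in the second cohort in 6 (0.0367% of genes tested) and lower in 1 (0.00611%). The 6 were S100a6, Acsm3, Krt7, Cwh43, Gldc and Dhrs9. For Krt7, a keratin of simple epithelia, the second cohort had 36.5 ± 7.86 CPM in Leptin-water and 24.3 ± 5.02 CPM in Saline-water libraries (n = 6 each), and the first had 24.2 ± 4.01 CPM in Leptin-water (n = 7) and 37.5 ± 10.3 CPM in Saline-water libraries (n = 8). The log2 fold changes were thus 0.59 and −0.63, and they differed by 1.24 (SE 0.23, adjusted p = 0.0378, edgeR).

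The other genes of this kind also had opposite signs in the cohorts. None of the 7 passed in the first cohort's own edgeR fit (adjusted p of 0.119 to 0.214). Only S100a6 passed in that of the second cohort, the others having adjusted p-values of 0.0944 to 0.482. S100a6 was at 1.07 in the second and −0.67 in the first cohort, a difference of 1.76 (adjusted p = 0.0378). Acsm3, an acyl-CoA synthetase of medium-chain fatty acids, was at 0.59 and −0.43, and Cwh43, which works on the lipid of GPI anchors, at 1.79 and −1.19 (differences of 1.03 and 2.99, adjusted p = 0.0378). Gldc, the glycine decarboxylase, was at 1.47 and −0.80, and Dhrs9, a retinol dehydrogenase, at 0.86 and −0.75 (differences of 2.29 and 1.62, adjusted p = 0.0477). Mab21l2 was the gene with the opposite order, at −0.32 in the second and 0.22 in the first cohort (difference −0.52, adjusted p = 0.0378). The count of 7 fell to 0 when Leptin-water 8, 9, 10 or 13 or Saline-water 9, 10, 12 or 14 was left out, and was 75 with DESeq2 and 0 with limma voom. The stomach list stood on opposite sides in the cohorts, and the part of this in the 7 differences was not tested beyond a fit with the muscle, stomach and pancreas lists as covariates, in which 0 genes passed (1028 at an unadjusted p under 0.05).

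Of the 8 genes that rose, 7 had a negative log2 fold change in the first cohort, from −0.38 for Gsdma2 to −1.48 for Psapl1, and Chrna9 was the exception. Only S100a6 passed the test of the difference. For Psapl1 the difference was 3.83 (adjusted p = 0.0625), and for Chrna9 it was 1.07 (adjusted p = 0.536). Over all genes, 51.7% had the same sign of log2 fold change in the second and the first cohort, and 59.2% had the same sign on water and in the antibiotic arm. Of the 50 genes with the lowest p in the second cohort, 32% and 42% did so.

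Whether the effect differed on antibiotics was tested as an interaction in the 24 libraries of the second cohort. No gene passed in edgeR, with 1043 genes (6.38%) at an unadjusted p under 0.05, or with DESeq2 (0 genes, 1093 unadjusted) or limma voom (0 genes, 1206 unadjusted). Among the genes that rose on water, the antibiotic minus water difference was −2.47 for Sptssb (unadjusted p = 0.0205), −2.25 for Psapl1 (unadjusted p = 0.0294), −1.10 for S100a6 (unadjusted p = 0.0283) and −0.83 for Chrna9 (unadjusted p = 0.191), each with an adjusted p of 0.772 or more. Of the 8 genes that rose on water, 4 had a positive log2 fold change in the antibiotic arm. The 8 were picked for their rise on water, which by itself favours a negative difference. In the antibiotic arm's own fit, 58 genes rose (0.356%) and 3 fell (0.0184%), and a difference between the counts of calls on water and on antibiotics is no test of a difference in effect.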

How the data were processed

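Total RNA of duodenum was sequenced after depletion of ribosomal RNA (strand-specific libraries from 150 ng, paired reads of 50 bases, per the labels' protocols). The authors deposited raw read counts per gene symbol, in a table described as filtered, with 16358 genes and 39 libraries. In at least 1 of the 12 libraries used, 62 of these genes were at 0. Tools listed in the submitters' processing notes are FastQC, HISAT2, featureCounts and edgeR 3.42.0, with mm10 as the build. How the table was filtered, with which annotation, and whether strand was used is not given in the sources used here, so overlapping and near-identical genes can share reads.

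The counts entered quasi-likelihood F tests in edgeR 4.0.16 under R 4.3.3, with TMM factors, filterByExpr (minimum count 10), Benjamini-Hochberg adjustment over all genes of a fit and a threshold of 0.05. All adjusted p-values are from these fits unless another tool is named. Each SE is the fold change on the log2 scale divided by √F. CPM levels were TMM-scaled over all 39 libraries and are given as mean ± SD, and list means used log2 CPM with a prior count of 2. Single values were compared with exact permutation tests. The code was tested on simulated counts. Alternatives were DESeq2 1.42.0, limma 3.58.1 voom with sample weights, other scalings and filters, list means as covariates, a replicate block and leaving out libraries. Libraries sharing a title number (5 numbers) had correlations of their deviations of −0.11 to −0.0299, so they were not treated as pairs. Among 30 pairs within groups the chi-square per degree of freedom was 19.8 to 184.6, and none was treated as a repeat.

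The text names every gene called, the 10 further genes in each direction with the lowest p at a mean log2 CPM of at least 1 (excluding predicted and unnamed genes), the genes called between cohorts, members of the lists with the lowest p, genes whose promoter holds the ERSE, and a set that includes Lepr, Socs3, Cck, Apoa4 and Slc5a1. The libraries, the 41 lists (715 genes, 668 tested), this rule and the tests were chosen with earlier results of these data known. Gene positions are from GENCODE vM21 (GRCm38), matched by symbol.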

Additional observations from a re-analysis of the deposited data

Results flagged for a closer look

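A library counted as standing apart when its gap to the nearest library of its group, over the range of the 6, was above Dixon's critical value for 6 samples. Of 204 groups of values examined 14 did so, where chance gives about 5% (10.2). Saline-water 10 was the highest of its group for Tsc22d3 (110.4 CPM), Herpud1 (220.3 CPM), Bcl6 (46.5 CPM) and the mean of the glucocorticoid list (6.23 log2 CPM), and the lowest for Tst (3.79 CPM). Saline-water 9 was the highest of its group for Reg3b (7099 CPM, the next being 267.8), Reg3g (3093 CPM, the next being 179.2) and Dhrs9 (1.92 CPM). Leptin-water 10 was the highest of its group for Gast (2.61 CPM) and the exocrine pancreas list (4.92 log2 CPM) and the lowest for Nr4a1 (2.15 CPM). Saline-water 14 was the highest of its group for Nr4a1 (13.7 CPM), Saline-water 13 for Gast (0.983 CPM) and Leptin-water 12 for Nr1d2 (148.3 CPM).

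The effect of leptin differed between the second and the first cohort by the interaction test (edgeR, adjusted p of 0.0378 or 0.0477) in 7 genes. The difference, second minus first cohort on the log2 scale, was 1.03 for Acsm3, 1.76 for S100a6, −0.52 for Mab21l2, 2.99 for Cwh43, 1.24 for Krt7, 2.29 for Gldc and 1.62 for Dhrs9. Each of the 7 had opposite signs in the cohorts, but none passed in the first cohort's own fit and only S100a6 in that of the second.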

How the results depend on the processing

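The number of genes called for leptin on water was 8. It was 67 with DESeq2 (8 of them shared), 24 with limma voom (6 shared), 8 with RLE factors (8 shared), 4 with upper quartile factors (4 shared), 4 with no filter (4 shared), 3 without the 3 libraries high in pancreas genes (1 shared), 2 in a fit of all 27 water libraries (1 higher and 1 lower, 0 shared), and 0 with genes at a mean log2 CPM of at least 1, with muscle, stomach and pancreas list covariates, with the stomach list covariate alone, and in a fit of all 24 libraries of the second cohort (855 to 1747 at an unadjusted p under 0.05). Leaving out single libraries gave 0 to 19. With the replicate block on shared title numbers it was 0 (1015 unadjusted) for leptin on water and 0 (1698 unadjusted) for the difference between cohorts, and 0 of 5 Leptin-water libraries correlated best with their own number. The difference between cohorts gave 7 genes, 75 with DESeq2, and 0 with limma voom, upper quartile factors or list covariates (1651, 1736 and 1028 unadjusted). It gave 0 to 11 with single libraries left out. The difference between antibiotic and water gave 0 under every alternative run (897 to 1558 unadjusted outside single-library omissions). The pancreas-high omission and the stomach covariate alone were chosen after seeing the data. The cause of these changes was not tested.

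The log2 fold changes of the 8 genes stayed positive under every alternative that tested them, at 1.97 to 2.48 for Chrna9, 0.68 to 2.25 for Sptssb, 0.68 to 2.08 for Sox21, 0.77 to 2.50 for Psapl1, 0.82 to 1.90 for Teddm3, 0.58 to 1.88 for Lypd6b, 0.87 to 2.56 for Gsdma2 and 0.53 to 1.17 for S100a6 (Chrna9, Teddm3 and Lypd6b gave no value at a mean log2 CPM of at least 1). Signs turned, all without a call, with the 3 list covariates for Muc5ac (−0.39), Gast (−0.74), Ctse (−0.36), Gkn3 (−0.22), Muc6 (0.29), Tff2 (−0.16), Pgc (−0.34), Socs3 (0.10), Reg3b (2.66), Reg3g (2.03), Nqo1 (−0.13), Gsta4 (−0.22), Abcc2 (−0.058), Syt1 (0.18) and Chordc1 (−0.0060). With the stomach covariate they turned for Muc5ac (−0.49), Ctse (−0.31), Gkn3 (−0.53), Tff2 (−0.63), Pgc (−0.61), Reg3b (2.01) and Reg3g (1.49). Muc5ac, Gast, Ctse, Gkn3, Muc6, Tff2 and Pgc are members of the stomach list. Both covariate fits adjusted them for a mean they are part of, so their turned signs are no check of these genes. Without the 3 pancreas-high libraries signs turned for Gkn3 (−0.018), Tff2 (−0.050) and Pgc (−0.10), with limma voom for Tff2 (−0.072) and with the replicate block for Pgc (−0.091). With single libraries left out, Pgc ran from −0.041 to 0.28, Tff2 from −0.077 to 0.25, Muc6 from −0.30 to 0.058, Lepr from −0.0029 to 0.23, Reg3b from −3.51 to 0.22 and Reg3g from −2.98 to 0.017. Depth limits the rare genes most, Chrna9 having 5 to 13 reads per Saline-water library and Gast 0 to 40.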
